A study of Arabidopsis thaliana with 22 samples.

Results

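H3K9Ac peaks that carried neither H3K14Ac nor H3K23Ac were examined in 3-day-old etiolated *Arabidopsis* seedlings after ethylene treatment. They were chosen by overlap: a peak of the Col-0 H3K9Ac ethylene list was kept when it shared not even 1 bp with a peak of the Col-0 H3K14Ac or H3K23Ac ethylene list. The rule kept 5378 of 18003 peaks (29.9%, 95% Wilson interval 29.2 to 30.5%). This count was fixed by the choice of the peaks, and a peak called absent from a list is only one that did not reach the authors' P threshold of 0.01 there. For brevity they are called H3K9Ac-only peaks below, and the other 12625 peaks of the list serve as the comparison. The name refers to these 3 marks, since no other modification was examined. The lists come from chromatin immunoprecipitation with sequencing (ChIP-seq), in which DNA bound to a modified histone is pulled down with an antibody and sequenced. Col-0, the wild type, and *ein2-5*, a loss-of-function mutant of *EIN2*, were kept in air or exposed to ethylene at 10 p.p.m., in either case over 4 h. H3K9Ac was mapped in Col-0 alone. Col-0 H3K9Ac and H3K23Ac were sequenced in 2 libraries per treatment, Col-0 H3K14Ac in 1, and each *ein2-5* mark in 2, with 1 IgG control per genotype and treatment. Replicate reads were pooled before peak calling, so the lists hold no replicates and no test across samples was possible. Intervals on shares cover counting error only, and peaks are not replicates of a treatment.

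Acetylation of lysines in the tail of histone H3 is added by histone acetyltransferases and removed by deacetylases, and it is generally found at the 5′ part of transcribed genes. In ethylene signalling, receptors of the endoplasmic reticulum and the kinase CTR1 repress EIN2 until ethylene is bound, and EIN2 then signals to the transcription factors EIN3 and EIL1 in the nucleus. H3K9Ac is a widely used mark of active promoters, and seedlings grown in the dark lengthen their hypocotyl mainly by cell expansion, in which auxin and enzymes of the cell wall take part. Whole seedlings were used, so a weaker peak in fewer nuclei with the mark and one with less mark per nucleus cannot be told apart.

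The ethylene lists of the 3 marks shared 1 IgG control of 10479732 tags, against 28659444 tags of H3K9Ac ChIP. The 3 Col-0 air lists shared a shallower control, of 2438541 tags, and this control's match to its library is in doubt. Floral identity genes (8) and seed maturation genes (10), which are not used in seedlings, held no H3K9Ac ethylene summit, whereas all 9 housekeeping genes did.

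Sequences of 200 bp around the summit, the base of highest coverage, are shown for 8 H3K9Ac-only peaks to let the DNA under these peaks be compared. *AT1G78260* had the highest −log10 P of the class, *RTFL2* the highest fold enrichment and *CSLC04* the longest peak. The next pair lay outside protein-coding genes, and *AT1G22330* had none of the other marks in any list. A SAUR gene and *XTH30* stand for the cell expansion families described further on, and this pair was picked after the values had been seen. All are on the plus strand of TAIR10, written 5′ to 3′, contain no annotated UTR, and have the 21 bases at the summit in capitals.
*AT1G78260*, chr1:29447322-29447521: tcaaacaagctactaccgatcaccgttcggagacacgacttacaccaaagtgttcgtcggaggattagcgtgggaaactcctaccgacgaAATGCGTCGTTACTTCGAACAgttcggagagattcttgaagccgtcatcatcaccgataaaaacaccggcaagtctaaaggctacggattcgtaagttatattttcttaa
*RTFL2*, chr2:12523619-12523818: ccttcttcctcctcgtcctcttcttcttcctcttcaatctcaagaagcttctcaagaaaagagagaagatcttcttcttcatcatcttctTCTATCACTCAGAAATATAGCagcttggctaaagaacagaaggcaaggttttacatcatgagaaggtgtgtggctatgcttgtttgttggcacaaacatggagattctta
*CSLC04*, chr3:10507000-10507199: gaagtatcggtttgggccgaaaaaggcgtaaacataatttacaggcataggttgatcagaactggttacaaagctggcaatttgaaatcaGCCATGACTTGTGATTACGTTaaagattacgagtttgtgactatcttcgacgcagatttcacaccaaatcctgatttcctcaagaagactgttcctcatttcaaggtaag
upstream of *AT1G57620*, chr1:21341919-21342118: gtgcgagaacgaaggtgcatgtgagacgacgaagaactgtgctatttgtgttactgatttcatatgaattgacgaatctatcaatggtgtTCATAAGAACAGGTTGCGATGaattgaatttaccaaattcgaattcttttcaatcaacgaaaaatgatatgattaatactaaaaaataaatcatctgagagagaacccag
no protein-coding gene within 2 kb, chr5:13611932-13612131: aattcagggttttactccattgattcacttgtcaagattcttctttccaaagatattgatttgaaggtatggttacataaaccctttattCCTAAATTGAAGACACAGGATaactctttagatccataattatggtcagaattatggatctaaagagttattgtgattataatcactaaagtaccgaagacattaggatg
*AT1G22330*, chr1:7886922-7887121: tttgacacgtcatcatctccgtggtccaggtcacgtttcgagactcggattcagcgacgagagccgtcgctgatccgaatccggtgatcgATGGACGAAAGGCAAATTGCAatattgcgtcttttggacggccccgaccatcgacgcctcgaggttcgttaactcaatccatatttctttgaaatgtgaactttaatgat
*AT4G34810*, chr4:16599154-16599353: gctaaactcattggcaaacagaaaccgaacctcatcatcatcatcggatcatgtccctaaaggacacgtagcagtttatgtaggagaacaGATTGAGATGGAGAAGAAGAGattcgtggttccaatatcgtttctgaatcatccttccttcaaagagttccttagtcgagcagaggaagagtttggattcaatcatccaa
*XTH30*, chr1:11575443-11575642: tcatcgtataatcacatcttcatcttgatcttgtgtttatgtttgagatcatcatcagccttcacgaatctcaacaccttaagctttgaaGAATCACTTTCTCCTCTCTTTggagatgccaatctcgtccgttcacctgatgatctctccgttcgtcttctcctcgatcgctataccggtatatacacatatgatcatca
The GC content of these windows ranged from 31.5% at the chromosome 5 site with no gene nearby to 49% at *AT1G22330*. Both windows outside protein-coding genes were below 35%, and the 6 windows in genes were at 40% or more.

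GC content was lower in the class than in the rest of the list. Across all H3K9Ac-only peaks the median GC content of the 200 bp window was 38.5%, against 45% for the other peaks. For peaks with H3K14Ac only it was 42%, with H3K23Ac only 38.5%, and with both marks 46.5%. The H3K9Ac-only peaks thus shared their median with the peaks that had H3K23Ac only. When the whole list was divided into 10 equal bins by fold enrichment, the H3K9Ac-only median was the lower one in 10 of 10 bins. The gap was smaller within each of 3 parts of the gene and about as wide outside genes. Within coding sequence the medians were 43.5% and 48%, within introns 36% and 37.5%, and within the 5′ UTR 37% and 38.5%. Outside protein-coding genes they were 31% and 37%. Base composition thus moved in part with where the peaks lay. GC content also affects how well fragments amplify and map, and its part in the calls of the 3 lists was not tested. Of 7 short motifs searched on both strands of these windows, TATAAA differed most, with 16.6% of H3K9Ac-only windows, 7.70% of the other windows and 10.4% of all H3K9Ac windows holding it. The EIN3 site core ATGTATCT was found in 1.0% and 0.554%, the G-box CACGTG in 1.51% and 2.43%, and the auxin response element TGTCTC in 12.8% and 13.1%. TGGGCC, the site II element, was in 1.08% and 1.41%, the telo box AAACCCTA in 6.58% and 7.72%, and the repeat GAGAGA in 28.7% and 32.2%. Over all H3K9Ac windows these 6 shares were 0.689%, 2.16%, 13.0%, 1.31%, 7.38% and 31.1%, in the same order. TATAAA is itself AT-rich, and a match is only a run of letters in the window.

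H3K9Ac-only peaks were weaker and shorter than the rest of the list. This is a description, since the overlap that chose them depends on peak length and strength. Their fold enrichment over the local background had a median of 2.1 and 10 to 90% limits of 1.69 and 2.83, against a median of 2.87 for the other peaks. The median length was 392 bp against 617 bp, and the median −log10 P was 6.18 against 15.2. The coverage at the summit, the pileup, had a median of 52.3 against 75.7 fragments, while the background was alike, at 23.4 and 25.0 fragments. The 3 remaining classes followed in steps. Fold enrichment was 2.28 at the 1715 peaks with H3K14Ac only, 2.67 at the 1872 with H3K23Ac only, and 3.02 at the 9038 with both. The 4 ranges overlapped widely, and 3201 H3K9Ac-only peaks had a fold enrichment of 2 or more.

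**Figure D1:**
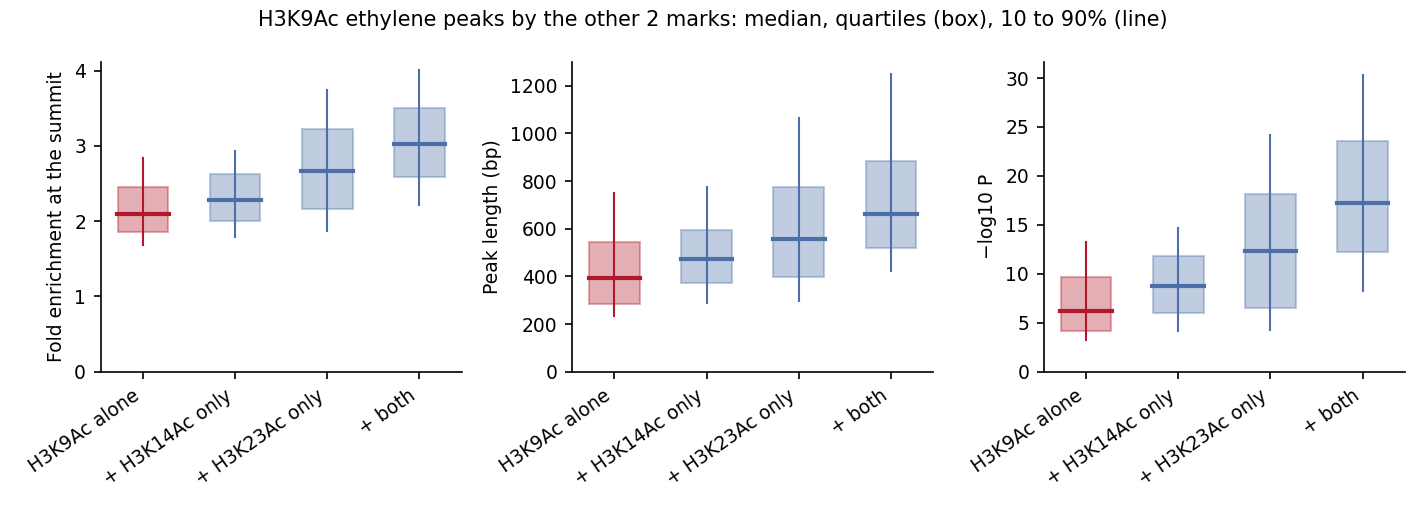
H3K9Ac ethylene peaks divided by the other 2 marks, with fold enrichment at the summit, peak length (bp) and −log10 P on the vertical axes. Thick bars are medians, boxes quartiles and lines the 10 to 90% range, and the 5378 H3K9Ac-only peaks have the lowest median in each panel (2.1, 392 bp and 6.18).

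The share of H3K9Ac-only peaks fell with enrichment at every step. It was 69.1% in the lowest bin of fold enrichment, 29.4% in the fifth and 1.22% in the highest, where 22 of 1801 peaks remained. Since the 3 marks shared a control, the smallest callable fold enrichment could be computed from the background at each H3K9Ac-only summit. It had a median of 1.49 and a range of 1.33 to 1.61, so H3K14Ac or H3K23Ac below this level would have been missed at these places. H3K9Ac itself was a median of 1.41 times above that limit, and 2094 of the peaks (38.9%) were at least 1.5 times above it. Where all 3 marks met, the list medians at those sites were 3.02 for H3K9Ac, 2.13 for H3K14Ac and 2.06 for H3K23Ac. These come from different antibodies and are given side by side without comparison. Whether weak H3K14Ac or H3K23Ac lay under the limit at H3K9Ac-only peaks was not tested, because the lists hold called peaks only.

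**Figure D2:**
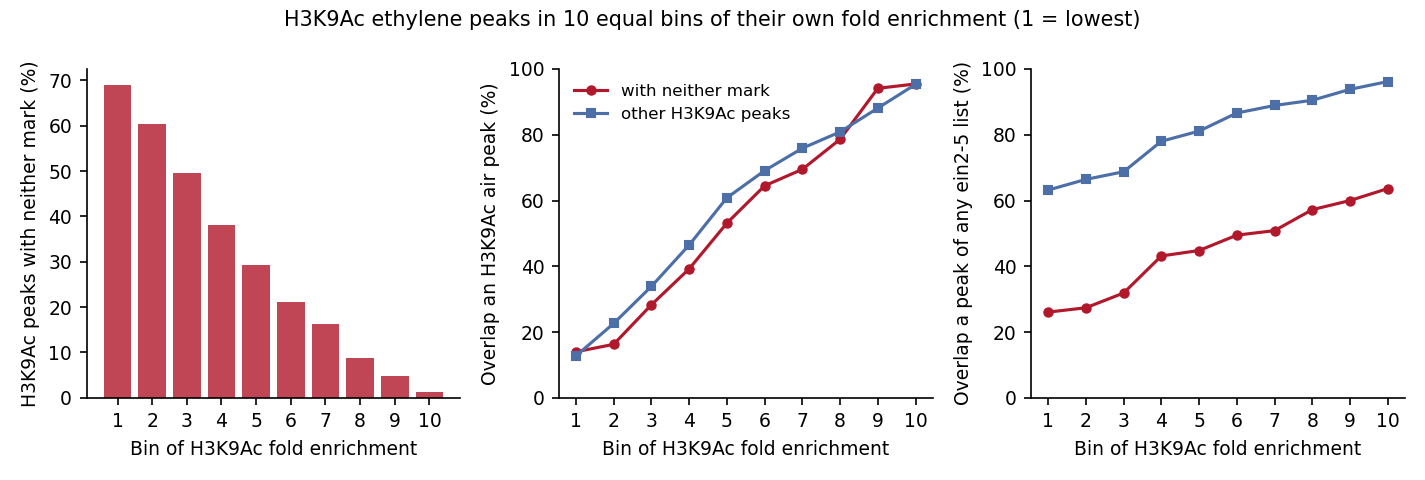
H3K9Ac ethylene peaks in 10 equal bins of their own fold enrichment, with bin 1 the lowest. The left panel gives the percent of peaks with neither mark, which drops from 69.1% to 1.22%. The other panels give the percent that overlapped an H3K9Ac air peak or a peak of any *ein2-5* list, for H3K9Ac-only peaks (circles) and the other peaks (squares).

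H3K9Ac-only peaks lay at widely varying distances from the other marks, 14.4% of them under 500 bp and 35.4% from 500 bp to 2 kb. The distance to the nearest H3K14Ac or H3K23Ac ethylene peak was 11 bp at the closest, 2012.5 bp at the median and 6666 bp at the 90% point. At the border of the rule, 16 peaks missed another peak by less than 50 bp and had a median fold enrichment of 2.36, while 24 peaks shared at most 50 bp with one and had a median of 1.99. Few peaks thus lay within 50 bp of the border. The amount of overlap required mattered more, since the class held 5945 peaks when the H3K9Ac summit had to lie inside the other peak and 7990 when 50% of the H3K9Ac peak had to be covered. The 774 peaks within 500 bp of another mark and the 942 at 5 kb or more had median fold enrichments of 2.09 and 2.13. Nearness to the other marks went with little difference in strength. The class was spread over the genome, from 28.5% of the list on chromosome 3 to 30.8% on chromosome 1. In 52 bins of 2 Mb with at least 100 peaks the share ranged from 19 to 36.1%.

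Of the H3K9Ac-only peaks, 1829 (34.0%, interval 32.8 to 35.3%) overlapped a peak of the H3K9Ac air list, which the rule did not use. The background was 57.3% of the whole ethylene list, and the other peaks reached 67.2% (66.4 to 68.1%). H3K9Ac-only peaks were therefore found in air less often. Much of this gap went with their low enrichment. When the other peaks were weighted to the same distribution over the 10 bins of fold enrichment, their share was 38.3%. The H3K9Ac-only share was the lower one in 7 of 10 bins, and in the lowest bin it was 14.0% against 12.7%. Depth moved with this result too. With the ethylene peaks scaled to the control depth of the air list, 2885 H3K9Ac-only peaks were kept, and 53.7% (51.9 to 55.5%) of them overlapped an air peak, against 73.2% (72.4 to 74.0%) of the others. H3K9Ac-only peaks found in both treatments had a median fold enrichment of 2.44 and a median length of 529 bp with ethylene. The 3549 without an air peak had 1.98 and 332 bp. Of these 3549, 1335 (37.6%) would have been called at the air control's depth, compared with 84.7% of those with an air peak. From called peaks alone, a gain of H3K9Ac with ethylene and a loss of weak calls in air cannot be told apart for the 3549. Control depth and treatment divided the libraries in the same way. The paper compared read densities between treatments and reported far fewer differing regions for H3K9Ac than for H3K14Ac or H3K23Ac. Which of those regions lie at these peaks was not examined.

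H3K14Ac and H3K23Ac were also called less often at these sites than at the other peaks in lists that had no role in the choice. In Col-0 in air, 54 H3K9Ac-only peaks (1.0%, interval 0.770 to 1.31%) overlapped an H3K14Ac peak and 182 (3.38%, 2.93 to 3.90%) an H3K23Ac peak. For the other peaks these shares were 22.0% (21.3 to 22.8%) and 33.8% (33.0 to 34.7%), or 14.1% and 24.6% after weighting by bins. Both air lists were short, with 3011 and 5012 peaks against the shallow control. Either mark in air was present at 3.59% of H3K9Ac-only peaks, with 26.1% for the whole list. The *ein2-5* lists have their own chromatin and their own IgG controls. Their controls also differed in depth, with 13683768 tags in air and 4333059 with ethylene. H3K14Ac of *ein2-5* was called at 492 H3K9Ac-only peaks in air (9.15%, 8.41 to 9.95%) and at 530 with ethylene (9.85%, 9.09 to 10.7%). H3K23Ac of *ein2-5* was called at 1101 in air (20.5%, 19.4 to 21.6%) and at 1265 with ethylene (23.5%, 22.4 to 24.7%). The other peaks reached 52.2% and 53.2% for H3K14Ac and 69.9% and 68.5% for H3K23Ac. H3K23Ac was thus the mark more often met in the mutant, at H3K9Ac-only peaks and at the other peaks alike. Its *ein2-5* lists were also longer, with 12212 peaks in air and 10909 with ethylene, against 9363 and 7932 for H3K14Ac.

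At least 1 of the 4 *ein2-5* lists covered 1933 H3K9Ac-only peaks (35.9%, 34.7 to 37.2%), 10725 of the others (85.0%, 84.3 to 85.6%), and 70.3% of the whole list. Unlike the overlap with air, this gap was still wide once enrichment was taken into account. Peak length was not matched in this step, and these lists hold the same marks that the rule excluded. The other peaks reached 72.9% after weighting by bins, and the H3K9Ac-only share was lower in 10 of 10 bins, with 26.1% against 63.2% in the lowest and 63.6% against 96.2% in the highest. The share showed no steady trend with distance, being 39.0% within 500 bp of another mark, 32.5% from 500 bp to 2 kb, 37.3% from 2 to 5 kb and 37.9% further away. It differed more with presence in air. Of H3K9Ac-only peaks with an H3K9Ac air peak, 54.7% overlapped an *ein2-5* list, compared with 26.3% of those without. Counting the 6 H3K14Ac and H3K23Ac lists outside the rule, 3386 H3K9Ac-only peaks (63.0%) overlapped none, against 13.6% of the other peaks. Another 987 overlapped 1 list, and 7 overlapped all 6.

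**Figure D3:**
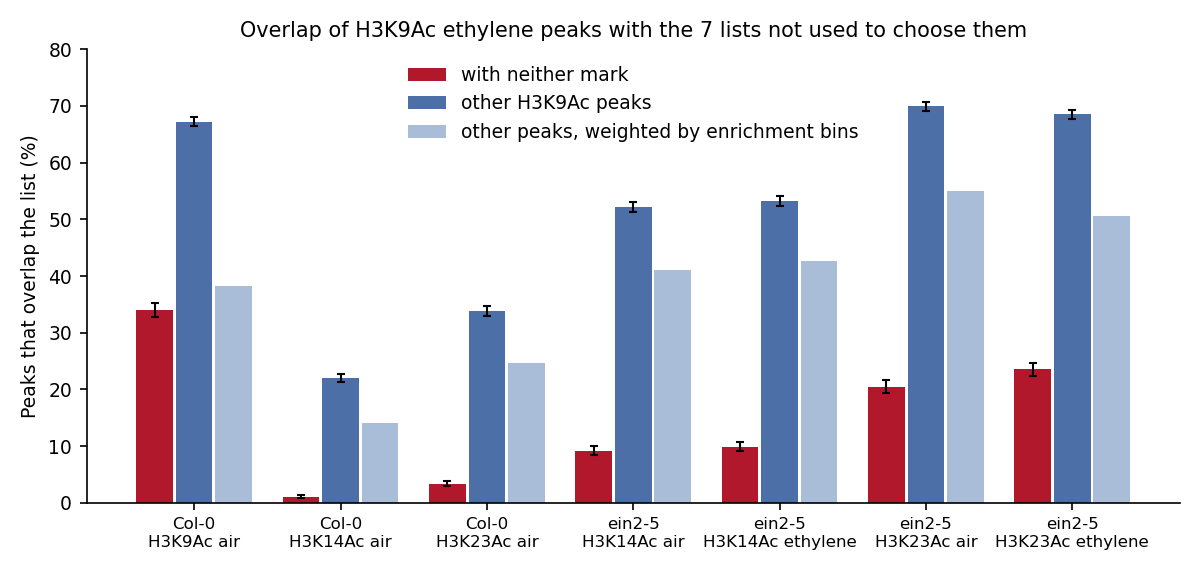
Percent of H3K9Ac ethylene peaks that overlapped each of the 7 lists not used by the rule, for the 5378 H3K9Ac-only peaks, the 12625 other peaks, and the other peaks weighted to the same bins of fold enrichment. Error bars are 95% Wilson intervals, and the weighted bars have none. For H3K9Ac in air the weighted bar is at 38.3% and the H3K9Ac-only bar at 34.0%, and for H3K14Ac of *ein2-5* in air they are at 41.1% and 9.15%.

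H3K9Ac-only peaks were gene marks for the most part, though less strictly than the rest. The summit lay in a protein-coding gene at 4492 of them (83.5%, interval 82.5 to 84.5%), with 91.6% for the whole list and 95.1% (94.7 to 95.5%) for the others. After weighting by bins the others were at 92.4%, and the order held in 10 of 10 bins and on all 5 chromosomes. Within genes the median position was nearly the same, with a wider spread for H3K9Ac-only peaks. The summit lay a median of 358 bp downstream of the gene start for H3K9Ac-only peaks and 361 bp for the others, with quartiles of 258 and 586 bp against 274 and 516 bp. In the final part of the gene, past 2 of 3 of its length, lay 8.46% of H3K9Ac-only summits in genes and 4.81% of the others. The most frequent 100 bp bin began at 200 bp in both. What differed was the part of the gene. Coding sequence held 43.2% of H3K9Ac-only summits and 66.4% of the others, introns held 25.1% and 16.5%, the 5′ UTR 14.0% and 11.7%, and the 3′ UTR 1.26% and 0.523%. Summits over 1 kb downstream of the nearest gene start made up 13.3% against 7.57%.

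**Figure D4:**
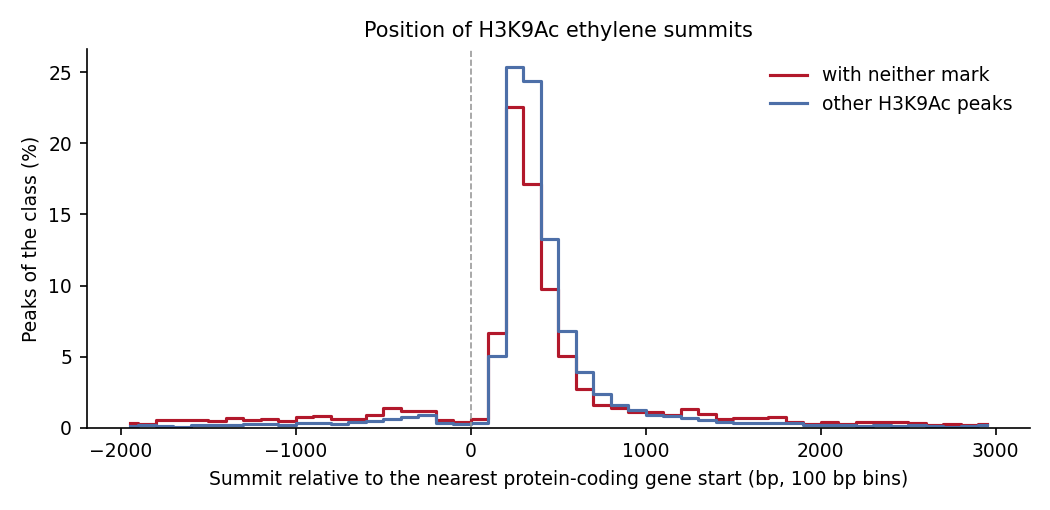
Summit position relative to the nearest start of a protein-coding gene (bp, 100 bp bins, positive is downstream), as percent of H3K9Ac-only peaks and of the other H3K9Ac peaks. Both classes peak in the bin from 200 bp downstream, and the H3K9Ac-only curve is lower there and higher upstream of the start. The range drawn holds 93.3% and 97.5% of the summits.

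Outside protein-coding genes lay 886 H3K9Ac-only summits. Of these, 183 were in noncoding genes or pseudogenes, among them 72 in long noncoding RNAs, 14 in small nucleolar RNAs and 8 in miRNA genes. Another 202 were within 1 kb upstream of a gene, 117 within 1 kb downstream, and 384 further away. For the 618 other peaks outside protein-coding genes, these 4 groups held 281, 105, 58 and 174, in the same order. Noncoding genes and pseudogenes thus held a smaller part of the summits outside protein-coding genes in the class. Of all summits they held a larger part, 183 of 5378 against 281 of 12625. The types of noncoding gene were not counted for the other peaks. The group further away made up 7.14% of the class (6.48 to 7.86%) against 1.38% of the other peaks (1.19 to 1.60%). The 886 peaks were weak, with a median fold enrichment of 2.00 and a median length of 303 bp, and only 9.59% overlapped an H3K9Ac air peak. H3K9Ac-only peaks in genes reached 38.8%.

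The 5 peaks outside protein-coding genes with the highest −log10 P are described next, and their strength follows from that choice. The highest, 332 bp long with a fold enrichment of 4.06, lay at -608 bp from the start of *AT1G57620*, which encodes a protein of the p24 family of vesicle traffic. The next, of 3.85, lay in the noncoding gene *AT1G04107*. The nearest protein-coding gene, by either gene end, was the chitinase gene *AT1G02360*, whose start was 2047 bp away. The third, of 4.05, had no protein-coding gene within 2 kb on chromosome 5. The fourth, of 3.36, lay in the transcribed pseudogene *AT3G46385* and overlapped all 4 *ein2-5* lists. The fifth, of 3.62, was at -1336 bp from the start of *AT2G25150*, a gene for an acyltransferase. All 5 overlapped an H3K9Ac air peak, where the fold enrichment ran from 2.49 to 3.2.

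The strongest H3K9Ac-only peaks belonged to genes of varied functions. The 10 highest by −log10 P, from 25.0 to 32.5, had fold enrichments of 3.68 to 4.54 and all overlapped an H3K9Ac air peak. First came *AT1G78260*, for a protein with an RNA recognition motif. Its peak of 1330 bp had a fold enrichment of 4.34 with ethylene, and the nearest H3K14Ac or H3K23Ac ethylene peak was 2391 bp away. In air the fold enrichment was 3.45, over the shallower air control, so it is not compared with the ethylene value. This site overlapped 4 of the 6 other lists, H3K23Ac of Col-0 air among them, so the other marks had been called there in other samples. A second gene of this kind, *AT2G46780* (4.16), overlapped 3 lists of *ein2-5*. *RTFL2*, which encodes a small peptide of the ROTUNDIFOLIA family that limits cell proliferation, had the highest fold enrichment of the class at 4.54, in a peak of 778 bp over its coding sequence. It overlapped none of the 6 lists, and the nearest peak of another mark was 5941 bp away. *ARR6*, a type-A response regulator that dampens cytokinin signalling, had 4.04, also with none of the 6 lists. *CSLC04*, a glucan synthase of xyloglucan, had 3.68 over the longest peak of the class, 2369 bp. The remaining genes of the 10 were *AT5G06980* (3.85) and *AT5G19190* (3.93), both uncharacterized, *AT1G47740* (4.08), for a thiol peptidase, and *AT1G64330* (3.97), for a myosin-like protein. With the peak upstream of *AT1G57620*, 4 of the 10 overlapped none of the 6 lists.

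Among peaks with none of the 6 lists and no other mark within 1 kb in ethylene, *RTFL2* led. *AT1G22330*, for another protein with an RNA recognition motif, followed with a fold enrichment of 3.8. *BZS1*, a B-box zinc finger factor of light and brassinosteroid signalling, had 3.68 with ethylene and 3.61 in air. *BGAL1*, a β-galactosidase of the cell wall, had 3.52, and *ASG8* had 3.37 with ethylene and 2.06 in air. The air values rest on the shallower air control and are not compared with the ethylene ones. The summit window of *ASG8* held a G-box. Among peaks without any H3K9Ac air peak, the strongest were at *AT3G09540* (pectin lyase-like, 3.16), *AT5G10435* (2.70), *TRM34* (3.60), the receptor kinase gene *AT1G56140* (3.05) and the receptor kinase gene *SRF8* (3.47). Their −log10 P ran from 19.8 to 21.6. That they rank below the 10 strongest is fixed by the choice, since all 10 overlapped an air peak. Length and strength parted at *PYK10*, a β-glucosidase of the endoplasmic reticulum. Its peak was 2010 bp long and had a fold enrichment of only 1.43, at a background of 43.0 fragments. The other long peaks were at *AT3G16370*, a GDSL lipase (2052 bp), *AUX1*, the auxin influx carrier (2027 bp), and *AT1G52750*, a hydrolase (1984 bp), with fold enrichments of 3.41, 3.00 and 3.55.

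At the level of genes, 4187 of 15247 genes with an H3K9Ac ethylene summit (27.5%) held an H3K9Ac-only summit, and 518 of these also held another H3K9Ac summit. In 3219 (76.9%) no H3K14Ac or H3K23Ac ethylene peak touched the gene, and in 968 (23.1%) one lay elsewhere in it. The rule itself kept the other marks off these peaks, so the 76.9% follows in part from the choice. It is a description, and no share expected without the rule was computed. Within 2 kb, the window of the study, 8508 genes (31.0% of all protein-coding genes) had an H3K9Ac-only peak. Of these, 2393 (28.1%) had no H3K14Ac or H3K23Ac ethylene peak in the same window, a count that the rule also shaped.

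Families of cell expansion had the highest shares among the gene lists with at least 10 measured genes. Of 47 SAUR genes with an H3K9Ac ethylene summit, 30 (63.8%, interval 49.5 to 76.0%) held an H3K9Ac-only summit, against 27.5% of all genes. SAURs are small auxin-induced proteins that promote acid growth by keeping proton pumps active. Of 14 genes for xyloglucan endotransglucosylases (XTHs), which cut and rejoin wall xyloglucan, 11 (78.6%, 52.4 to 92.4%) did so. Of 11 expansin genes, whose products loosen the wall, 7 (63.6%, 35.4 to 84.8%) did so. Their H3K9Ac-only peaks had median fold enrichments of 2.09, 2.11 and 2.04 for SAURs, XTHs and expansins, close to the 2.13 of all H3K9Ac-only peaks in genes. The other H3K9Ac peaks of these families, 17, 4 and 5 in number, had medians of 2.54, 2.43 and 2.53. For the other H3K9Ac peaks in all genes the median was 2.88. The family shares were not weighted by fold enrichment. Of the 30 SAUR peaks, 4 (13.3%) overlapped an *ein2-5* list, against 39.2% of all H3K9Ac-only peaks in genes. An H3K9Ac air peak was overlapped by 10 (33.3%), near the 38.8% of all H3K9Ac-only peaks in genes. Shares in lists of genes are descriptions, with no test of the list.

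The SAUR peaks ranged from a fold enrichment of 1.47 at *SAUR28* to 3.06 at *AT4G34760*. Many belonged to arrays, since 23 of the 30 genes lay within 10 kb of another SAUR gene with an H3K9Ac-only peak. On chromosome 4 the neighbours *AT4G34760* (3.06), *AT4G34770* (2.79), *AT4G34780* (1.51), *AT4G34790* (1.65), *AT4G34800* (2.91) and *AT4G34810* (2.73) each held one. The next gene of that array, *AT4G34750*, had a peak of 4.05 with H3K14Ac or H3K23Ac, and it overlapped 5 of the 6 other lists. On chromosome 5 the genes *SAUR19* (2.1), *SAUR20* (1.86), *AT5G18030* (1.81), *SAUR22* (2.41), *SAUR23* (2.08) and *SAUR24* (2.19) held one each, none with an air peak. Genes of this array are near copies of each other, and Bowtie2 was run at default settings, which report a single placement for a read that matches several copies. Uniquely mapped reads were counted in the study's quality control, but whether peaks were called from these alone was not stated, so the values of such copies are uncertain. Of the 17 SAUR genes that held other H3K9Ac peaks only, 3 lay within 10 kb of another SAUR gene, so the 2 groups differed in clustering. The other SAUR peaks had a median fold enrichment of 2.54, and 11 of 17 overlapped an *ein2-5* list.

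Among the XTHs, *XTH30* had the strongest H3K9Ac-only peak, 1706 bp long with a fold enrichment of 3.51. *XTH5* (2.91), *XTH8* (2.71), *XTH15* (2.59), *XTH32* (2.49) and *XTH16* (2.30) followed. At the low end, *XTH19* had a fold enrichment of 1.38, the lowest of all 5378 peaks, in a peak of 1025 bp that overlapped an H3K9Ac air peak. The XTH peaks with another mark were at *XTH4* (3.03), *XTH28* (2.62), *XTH24* (2.23) and *XTH18* (1.98), within the range of the H3K9Ac-only ones. Among expansins, *EXPA11* (2.79), *EXLA2* (2.62) and *EXPB1* (2.49) led. *EXPA6* held both kinds, an H3K9Ac-only peak of 2.26 and another of 5.17 that overlapped 5 of the 6 lists. *EXPA1* had 2 weak H3K9Ac-only peaks of 1.84 and 1.48 and none of the other kind.

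Other families lay nearer to the background or below it. Of 294 ribosomal protein genes 73 (24.8%, 20.2 to 30.1%) held an H3K9Ac-only summit, and of 225 genes for RING and U-box proteins, which attach ubiquitin, 44 (19.6%, 14.9 to 25.2%) did. Of 34 genes annotated with a histone or a histone methyltransferase, 5 (14.7%, 6.45 to 30.1%) did. None of the 10 histone acetyltransferase and deacetylase genes with an H3K9Ac summit held one, with an interval of 0 to 27.8%. Transcription factor families were spread on both sides, with 24 of 49 for MYB (49.0%, 35.6 to 62.5%) and 10 of 23 for MADS-box (43.5%). There were 19 of 55 for bZIP (34.5%), 10 of 38 for NAC (26.3%), 7 of 35 for WRKY (20%) and 5 of 35 for ERF and AP2 factors (14.3%). Leaving aside families picked after their shares had been seen, 26 lists had at least 10 measured genes. Of these, 4 had intervals wholly above the 27.5% of all genes (SAURs, XTHs, expansins and MYB factors) and 2 wholly below. The remaining large families ran from 26 of 135 F-box genes (19.3%) and 17 of 87 disease resistance genes (19.5%) to 22 of 60 pectin enzyme genes (36.7%) and 30 of 82 leucine-rich repeat kinase genes (36.6%). Families picked after their shares had been seen were C1 domain proteins with 37 of 63 genes, GDSL lipases with 16 of 28, NPH3 proteins of phototropism with 11 of 20, ROTUNDIFOLIA-like peptides with 7 of 12, GH3 enzymes, which conjugate hormones to amino acids, with 6 of 10, and Aux/IAA repressors with 5 of 12. Such a choice favours high shares.

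**Figure D5:**
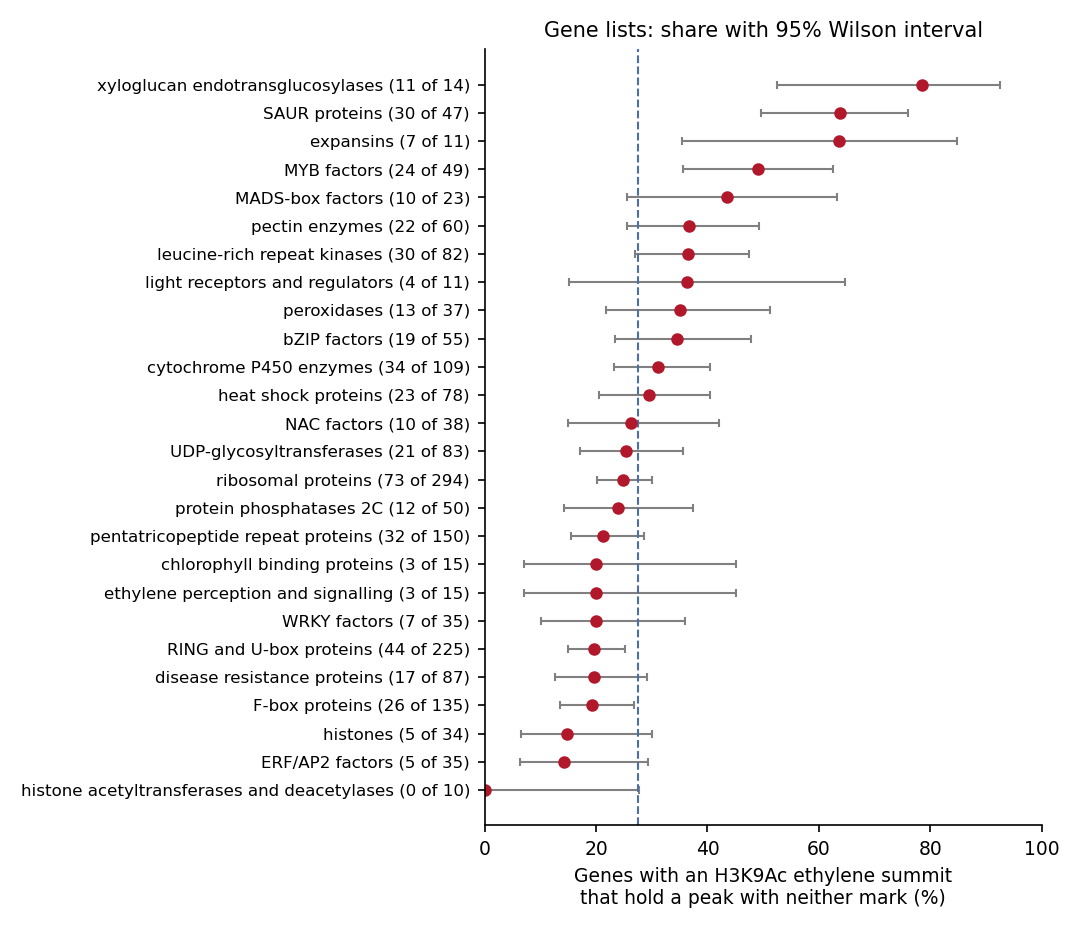
Percent of the genes with an H3K9Ac ethylene summit that held an H3K9Ac-only summit, for gene lists with at least 10 such genes (counts in parentheses), with 95% Wilson intervals. The dashed line is the 27.5% of all genes. XTHs (11 of 14), SAURs (30 of 47) and expansins (7 of 11) have the highest shares, and acetyltransferase and deacetylase genes (0 of 10) the lowest.

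Of 15 genes of ethylene perception and signalling with an H3K9Ac summit, 3 held an H3K9Ac-only one (20%, interval 7.05 to 45.2%), and the 27.5% of all genes lay inside this interval. The receptor genes *ETR1* and *ERS1* had fold enrichments of 2.53 and 2.48, 170 and 250 bp downstream of the gene start, each in an intron. *EIN2* itself had 2.48 in a peak of 879 bp. The nearest H3K14Ac or H3K23Ac ethylene peak was 11910 bp away at *EIN2*, 1801 bp at *ETR1* and 377 bp at *ERS1*. In only 2 of the 3 genes did no such peak touch the gene. All 3 H3K9Ac-only peaks overlapped an H3K9Ac air peak and an H3K23Ac ethylene peak of *ein2-5*. Their absence from the Col-0 H3K23Ac ethylene list was fixed by the rule, so no contrast between mutant and wild type can be read from these sites. The other receptor genes, *ETR2*, *EIN4* and *ERS2*, and *CTR1*, *EIN3*, *EIL1*, *EBF1* and *EBF2* held peaks with another mark, the strongest of each gene having fold enrichments of 2.68 to 4.63.

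In ethylene synthesis, 3 of 5 genes with an H3K9Ac summit held H3K9Ac-only peaks (60%, interval 23.1 to 88.2%). The 27.5% of all genes lay inside this interval. The genes *ACS5* and *ACS6* encode ACC synthases, the rate-limiting step, and *ACO1* encodes an ACC oxidase. *ACS6* had 2.09, with an air peak, *ACS5* had 2 peaks of 2.03 and 1.84, and *ACO1* had 2 of 1.89 and 1.74, these 4 without an air peak. The nearest H3K14Ac or H3K23Ac ethylene peak was 343 and 488 bp away at *ACO1*, 614 bp at *ACS6*, and 4501 and 4952 bp at *ACS5*. Only 1 of the 3 genes was touched by no such peak. *EFE*, which also encodes an ACC oxidase, had a peak of 4.18 with another mark, above all 5 of these H3K9Ac-only peaks.

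Of 11 genes of light receptors and regulators, 4 held an H3K9Ac-only summit (36.4%, interval 15.2 to 64.6%), each beside a peak with another mark. The 27.5% of all genes lay inside this interval. The 4 genes were *PHYA* (2.04), *PHOT1* (2.62), *PIF4* (1.71) and *HY5* (1.51). At *PHYA*, the phytochrome of far-red light, the H3K9Ac-only peak was 243 bp long and 256 bp away from another mark, beside an H3K9Ac peak of 4.00 and 1354 bp. At *HY5*, a factor that promotes light-grown development, a second H3K9Ac peak of 3.37 lay closer to the gene start. *PHYA* was the only one of 8 genes used for the study's ChIP-qPCR to hold an H3K9Ac-only summit (12.5%, 2.24 to 47.1%). Of 9 housekeeping genes, 4 held one (44.4%, 18.9 to 73.3%), and both intervals also held the share of all genes. The 4 housekeeping genes were *ACT2* (2.94), *ACT1* (2.47) and *ACT11* (1.82), all actins, and the elongation factor gene *AT1G07940* (2.00). Among them *ACT11* alone lacked an air peak. *ACT7* and *ACT8*, also actins, held peaks with another mark, of 4.04 and 3.01.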

How the data were processed

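Histone H3 acetylation was mapped by ChIP-seq in 18 ChIP and 4 IgG libraries, given as 10 peak lists. The authors aligned reads to TAIR10 with Bowtie2 2.1.0, removed duplicates with SAMtools, pooled replicates and called peaks with MACS2 2.1.0.20150603 without a model, at P 0.01 and a fragment length of 200 bp, against the IgG control. Per the file headers, each deposited peak has a pileup (signal, the coverage at the summit), a fold enrichment (ratio over local background), and a −log10 of the P and of the q value. The headers state that q was not calculated although values are present, so q served only in an alternative.

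Overlaps of at least 1 bp, distances and shares with 95% Wilson intervals were computed in pandas 2.3.3 and numpy 2.4.6 under Python 3.11.15. Intervals used statsmodels 0.14.6, and matplotlib 3.10.9 drew the figures. The smallest callable fold enrichment was the Poisson limit (scipy 1.17.1) at P 0.01 for the local background of each summit. Overlap code was tested on simulated data (2000 intervals, 0 mismatches). Genes and sequences came from RefSeq TAIR10.1, which has the chromosomes of TAIR10. Where stated, the other H3K9Ac peaks were weighted to 10 equal bins of fold enrichment as found in the class. Fold enrichment was not compared between lists.

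Named were the 10 peaks with the highest −log10 P, the 5 highest without an air peak, outside genes, and with no other mark in any list or within 1 kb, the 5 longest, and those in genes of the lists given by locus number. Other lists were taken by words of the annotated product. Members and lists were chosen with earlier results of these data known. Individual SAUR, XTH and expansin genes were named after their values had been seen. Alternatives changed the overlap, the thresholds, the lists and the gene window. Columns of per-sample values left unassigned numbered 0.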

Additional observations from a re-analysis of the deposited data

How the results depend on the processing

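No paired analysis was possible because replicates had been pooled before peak calling. The count of 5378 H3K9Ac-only peaks was 3201 at a fold enrichment of 2 or more and 2338 with the ethylene lists cut to the length of the shortest by P. It rose to 5604 at a q under 0.05, 5945 by the summit, 7990 when 50% of the peak had to be covered, 7250 with the H3K14Ac list alone and 7093 with the H3K23Ac list alone. It was 4604 with no other mark within 500 bp and 5010 with H3K9Ac peaks within 200 bp merged. The share with an H3K9Ac air peak was 27.8% at a q under 0.05, 47.1% at a fold enrichment of 2 or more, 47.9% when 50% of the peak had to be covered, 36.4% by the summit, 63.0% with lists cut to the shortest, and 53.7% at the control depth of the air list. For any *ein2-5* list the share was 34.1%, 42.6%, 50.1%, 39.0% and 54.7% under the first 5 of these. The share in genes was 85.9% at a fold enrichment of 2 or more, 87.6% with 50% covered and 93.2% with lists cut to the shortest. Alternatives chosen after seeing the data used 1 mark alone. With H3K14Ac alone the air and *ein2-5* shares were 39.8% and 45.4%, and with H3K23Ac alone they were 37.9% and 42.7%, with 86.9% in genes. Each *ein2-5* list on its own gave 9.15% and 9.85% for H3K14Ac in air and with ethylene, and 20.5% and 23.5% for H3K23Ac. The H3K9Ac-only share was lower than that of the other peaks in all 10 alternatives for air, all 13 for *ein2-5* and all 9 for genes. The difference in air shrank from -33.2 to -4.25 percentage points when the other peaks were weighted by bins of fold enrichment, from -49.0 to -37.0 for *ein2-5* and from -11.6 to -8.89 for genes. Stricter settings keep stronger peaks, and beyond that the cause of these shifts was not tested. The genes with an H3K9Ac-only peak and no other mark numbered 2393 at 2 kb and 2721 at 1 kb. Without replicates, the variation between seedling batches is unknown for every share.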
